A study of Mus musculus with 8 samples.

Results

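Expression of 8 genes was followed in mice labelled as lacking Crtc1 and in controls, in liver and in eWAT, the white fat beside the epididymis. The genes were Mt1 and Mt2, the metallothioneins, and Fkbp5, Tsc22d3, Sgk1, Zbtb16, Hsd11b1 and Cdkn1a, all known to respond to glucocorticoids or to supply them. They were picked by symbol from the 19348 genes of the count table, and all 8 were present and passed the filter on low counts in both tissues. Glucocorticoids, of which corticosterone is the main form in mice, bind the glucocorticoid receptor NR3C1, which then leaves its HSP90 chaperone complex, enters the nucleus and binds response elements in DNA. Fasting raises the circulating hormone, and liver and fat respond to it with genes of gluconeogenesis, lipolysis and stress defence. Metallothioneins are small cysteine-rich proteins that hold zinc and copper, and their genes are switched on both by zinc, through the factor MTF1, and by glucocorticoids.

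The tissues came from male C57BL/6 mice aged 12 weeks, kept on a normal diet and fasted for 16 h before collection, and each of the 4 groups held 2 libraries. The knockout animals (Crtc1-/-) carried a CRISPR/Cas9 deletion in every cell of the body, bred to homozygosity from heterozygous parents, and their controls (Crtc1+/+) were littermates. The hour of collection and any measurement of corticosterone were not among the sources used here. The study's methods describe liver and eWAT as taken from the same mice, but nothing in the labels says whether equal numbers mark the same mouse, and p-values measure only the spread between the 2 libraries of each group.

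Libraries held 16560070 to 19721464 counts. The libraries labelled Crtc1-/- did not hold fewer Crtc1 counts. Levels are given in CPM, the counts of a gene scaled to the size of its library. Crtc1 was at 22.1 and 18.0 CPM in the livers with this label and 11.7 and 9.86 CPM in the control livers (log2 difference 0.89, edgeR quasi-likelihood test, Benjamini-Hochberg adjusted p = 0.184), and in eWAT at 58.5 and 33.6 against 32.6 and 33.7 CPM (0.48, edgeR adjusted p = 0.396). Counts over the whole gene do not test for the loss of part of it, so the genotype labels could not be checked from this gene. The eWAT libraries also differed in their cell type markers. In all, 12 epididymis genes made up 8.66 to 10.1% of counts in the eWAT libraries labelled Crtc1+/+ and 0.00124 to 0.00238% in those labelled Crtc1-/-, while 10 adipocyte genes made up 0.256 and 0.394% against 4.63 and 2.20%. The 12 hepatocyte genes made up 9.97% of eWAT Crtc1-/- replicate 2, 0.107% of replicate 1, 0.0728 to 0.611% of the eWAT controls and 18.9 to 22.9% of the liver libraries. Macrophage markers in eWAT summed to 0.0580 to 0.140% in Crtc1-/- and 0.0189 to 0.0380% in Crtc1+/+, and endothelial markers to 0.177 to 0.322% and 0.0236 to 0.0244%. The genotype contrast in eWAT is therefore also a contrast between libraries rich and poor in epididymis genes, and genotype and tissue makeup cannot be told apart there. In bulk tissue, fewer cells of a type and less RNA per cell cannot be told apart either.

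**Figure D1:**
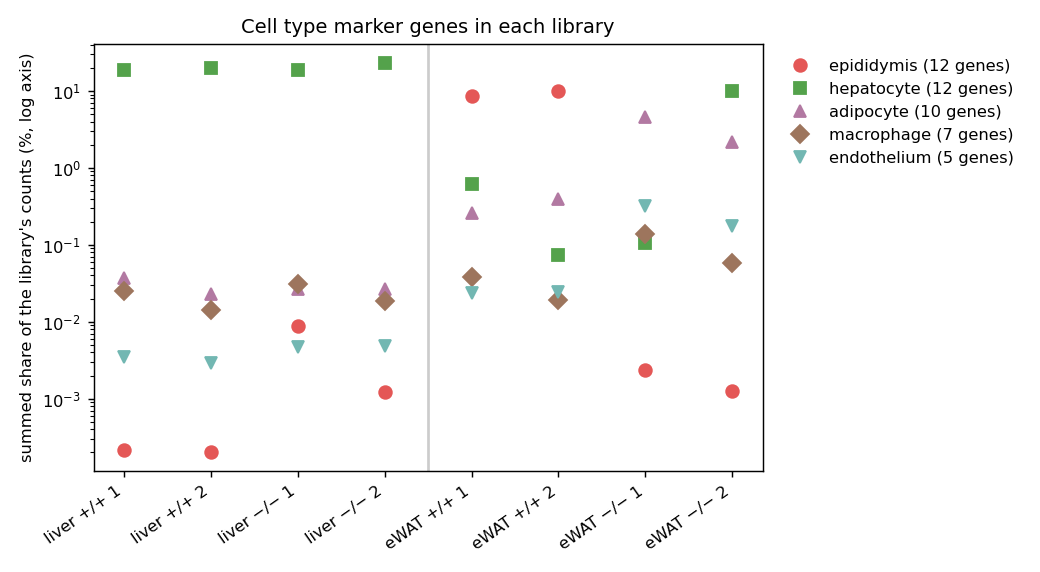
Summed share of counts (percent, log axis) taken by 5 lists of cell type markers in each of the 8 libraries. The eWAT Crtc1+/+ libraries stand high in epididymis genes at 8.66 to 10.1%, and eWAT Crtc1-/- replicate 2 stands high in hepatocyte genes at 9.97%.

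Several of the 8 genes stood apart between the genotypes, with signs that were not the same in the 2 tissues. In liver, the metallothioneins stood higher in Crtc1-/- mice and 3 of the other 6 genes, Tsc22d3, Sgk1 and Cdkn1a, stood lower without overlap of the groups. In eWAT, 7 of the 8 genes stood higher in Crtc1-/- mice and Fkbp5 stood lower, again without overlap. By edgeR's quasi-likelihood test at an adjusted p under 0.05, the only member called in liver was Mt2, against 0.0854% of the 11707 genes tested there (0.0598% called higher). In eWAT, Tsc22d3, Sgk1 and Cdkn1a were called, all higher, against 12.2% of 15391 genes (6.65% called higher). Hsd11b1 joined them under the study's own rule (a log2 fold change beyond 1 in either direction, with p before adjustment below 0.01), which took 4 members there, all higher, and 15.9% of genes (8.37% higher). The groups failed to overlap for 5 of 8 members in liver, beside 52.1% of all genes (25.8% higher, 26.4% lower), and for 8 of 8 in eWAT, beside 66.6% (31.3% higher, 35.4% lower), so in liver the share without overlap was near that of the transcriptome. The median log2 difference of the 8 genes was -0.37 in liver, where that of all genes was 0.00, and 2.24 in eWAT, where that of all genes was -0.05. Without either 1 of the Crtc1+/+ eWAT libraries edgeR called 0 genes in that tissue at an adjusted p under 0.05, while the study's rule still took 1 member, with 976 genes without replicate 1 and 633 without replicate 2.

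**Figure D2:**
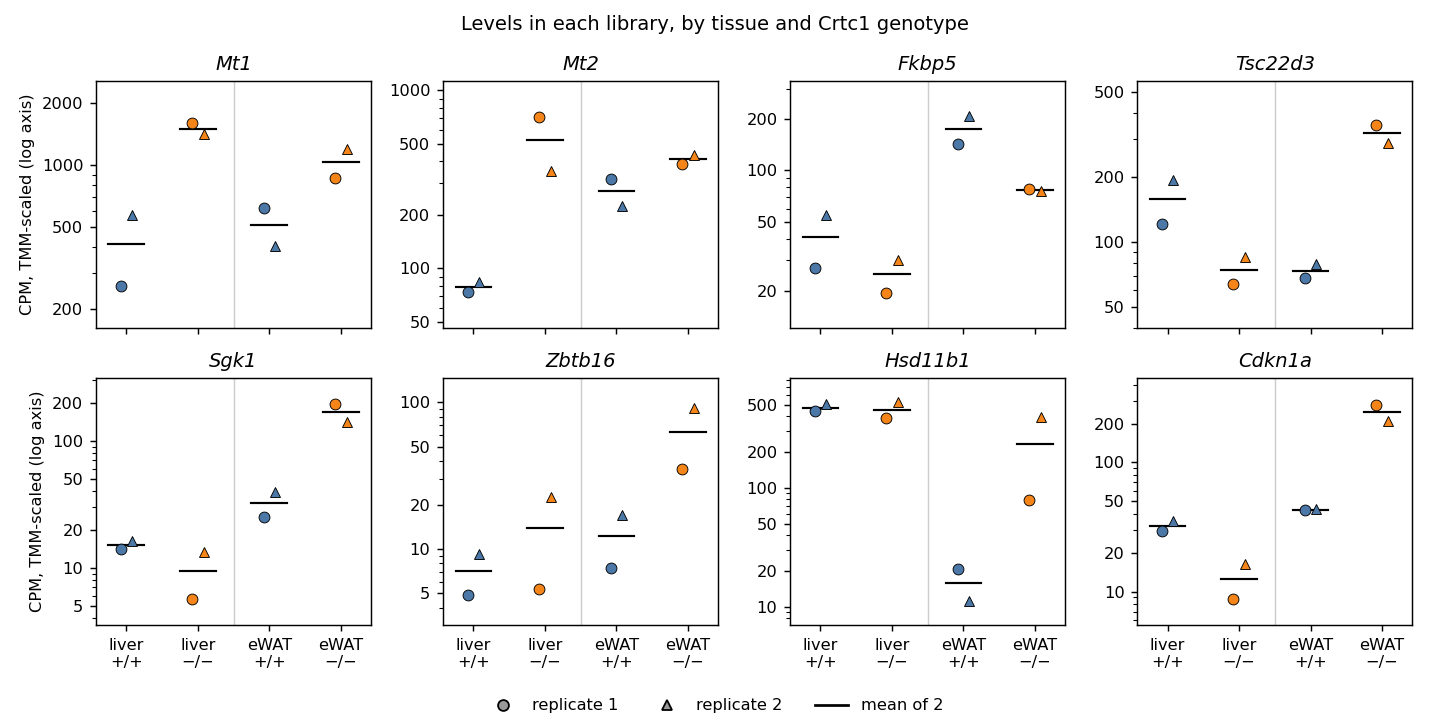
Level of each gene in CPM (log axis) in every library, by tissue and Crtc1 genotype, with circles for replicate 1, triangles for replicate 2 and a line at the mean of the 2. CPM are scaled within each tissue. Mt2 is higher in Crtc1-/- than in Crtc1+/+ liver, and Tsc22d3, Sgk1 and Cdkn1a are higher in Crtc1-/- than in Crtc1+/+ eWAT and lower in Crtc1-/- liver.

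The metallothionein genes are neighbours on chromosome 8. In the GRCm38.p6 annotation of RefSeq, Mt2 spans chr8:94172618-94173567 and Mt1 chr8:94178883-94180327, with 5315 bases between them. The 250 bases before the transcript start of each, from RefSeq, are shown because the genes share their inducers. Capitals mark the core of the metal response element that MTF1 binds, searched as TGCACNC or TGCGCNC on both strands. The Mt2 window is chr8:94172368-94172617 and the Mt1 window chr8:94178839-94179088, both on the plus strand, and the annotated span of Mt1 begins inside its window.
Mt2: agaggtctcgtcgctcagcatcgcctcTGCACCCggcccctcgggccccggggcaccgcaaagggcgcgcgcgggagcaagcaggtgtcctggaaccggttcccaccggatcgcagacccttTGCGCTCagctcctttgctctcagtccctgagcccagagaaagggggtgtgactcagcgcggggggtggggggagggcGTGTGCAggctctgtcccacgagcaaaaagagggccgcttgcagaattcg
Mt1: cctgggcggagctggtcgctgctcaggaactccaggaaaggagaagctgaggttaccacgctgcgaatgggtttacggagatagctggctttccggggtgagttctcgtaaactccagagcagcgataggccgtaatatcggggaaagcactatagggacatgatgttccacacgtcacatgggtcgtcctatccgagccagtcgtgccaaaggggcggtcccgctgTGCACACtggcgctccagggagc
The Mt2 window held the core at 3 positions, 223 to 217, 128 to 122 and 50 to 44 bases before the start, the last on the opposite strand. The Mt1 window held it at 1 position, 23 to 17 bases before the start. That start lies inside the annotated span of Mt1, and bases before chr8:94178839 were not searched for it. The number of cores before the annotated span is therefore not known from this window. Of all 32851 promoter windows of this length, 21.4% held at least 1 core and 1.26% held 3 or more. The Mt1 window also held a relaxed glucocorticoid response element (GNACANNNTGTNC, which reads the same on both strands), with the letters GGACATGATGTTC, 94 to 82 bases before the start. Only 0.387% of all windows held this pattern, and the Mt2 window did not. No window of Hsd11b1, Fkbp5, Tsc22d3 or Cdkn1a held it either. Such a match describes the letters and does not show that a factor binds.

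Mt2 was the only gene of the set that edgeR called in liver, where it was higher in Crtc1-/-. Its level was 74.1 and 83.5 CPM in the Crtc1+/+ livers (mean ± SD, 78.8 ± 6.67, n = 2) and 705 and 354 CPM in the Crtc1-/- livers (529.5 ± 249, n = 2). Both knockout livers lay far above both controls, and they differed from each other far more than the controls did. Mt2 rose by 2.75 on the log2 scale (SE 0.36, edgeR adjusted p = 0.0418), a 6.72-fold change that ranked 6 by p-value among the 11707 genes tested. The call was lost without Crtc1+/+ replicate 1 (2.65, edgeR adjusted p = 0.225) or replicate 2 (2.83, edgeR adjusted p = 0.649), and over all 13 alternatives the difference ranged from 2.17 to 3.15, with 8 keeping it under 0.05. Limma on FPKM and a fit of all 8 libraries did not call it.

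Mt1 in liver had the same direction. Its level was 259.6 and 573 CPM in Crtc1+/+ and 1604 and 1412 CPM in Crtc1-/-, so that the knockouts lay close together above 2 unlike controls. The log2 difference was 1.86 (SE 0.37), with an edgeR adjusted p of 0.113 that missed the threshold, although it passed the study's own rule. That rule was passed by 2 members higher in liver, Mt1 and Mt2, and 2 lower, Tsc22d3 and Cdkn1a, and by 4.27% of all genes (2.84% higher, 1.43% lower). The share of genes that were higher among those it took was 66.6%, or 77.1% with upper-quartile scaling. Without Crtc1-/- replicate 1 or replicate 2 the adjusted p of Mt1 in edgeR was 2.84e-06 or 0.0193, and DESeq2 also called it (adjusted p = 5.13e-05). Without Crtc1+/+ replicate 1 the difference was 1.38 and without replicate 2 it was 2.53, neither called (edgeR adjusted p = 0.491 and 0.443), and 4 of 13 alternatives called it in all.

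In eWAT, both metallothioneins were higher in Crtc1-/- by less than the test could call. Mt1 was at 618 and 404 CPM in Crtc1+/+ and 868 and 1200.3 CPM in Crtc1-/-. Mt2 was at 319 and 223 CPM in Crtc1+/+ and 385 and 435 CPM in Crtc1-/-. The groups did not overlap for either gene, but the log2 differences, 1.02 (SE 0.43, edgeR adjusted p = 0.174) for Mt1 and 0.60 (SE 0.35, edgeR adjusted p = 0.278) for Mt2, were not called in any of the 14 alternatives. The eWAT difference of Mt2 minus that in liver was -2.23 (SE 0.63), with an edgeR adjusted p of 0.0786. Of 14 alternatives 2 called it, DESeq2 (adjusted p = 0.0132) and limma on log2(FPKM + 1) (adjusted p = 0.0330).

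Set side by side per length, in FPKM, Mt1 exceeded Mt2 in every library. The ratio of Mt1 to Mt2 in FPKM was 3.63 and 7.11 in Crtc1+/+ liver, 2.35 and 4.11 in Crtc1-/- liver, 2.01 and 1.87 in Crtc1+/+ eWAT and 2.33 and 2.85 in Crtc1-/- eWAT. The ratios of the genotypes overlapped in liver and did not in eWAT, where both knockouts were above both controls. By FPKM, Mt1 ranked 25 and 26 among all genes in the Crtc1-/- livers and 156 and 61 in the Crtc1+/+ livers. Together, both genes took 0.232 and 0.183% of the counts of the Crtc1-/- livers and 0.0329 and 0.0639% of those of the controls. The tables do not state how reads that match both of these similar genes were divided, so the split between them is less certain than their sum.

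Other genes of zinc and copper handling were compared with the metallothioneins. Of 19 such genes, 18 were in the table and 17 were tested in each tissue, and edgeR called 0 in either. DESeq2 called 0 in liver, beside 311 of all 11707 genes, and 4 in eWAT, beside 4620 of all 15391. At an unadjusted p under 0.05 in edgeR there were 2 in liver and 4 in eWAT. The share of all genes at that level is not given for this list or those below, so such counts alone show no excess. In eWAT an edgeR unadjusted p of 0.0168 ranked 3145 and one of 0.0650 ranked 5743 among all genes. In liver 0.00619 ranked 437 and 0.0778 ranked 2731. Slc30a1, which encodes a zinc exporter that is itself an MTF1 target, was at 11.8 and 10.4 CPM in Crtc1+/+ liver and 10.9 and 9.92 CPM in Crtc1-/- liver. Mtf1 itself had a log2 difference of 0.45 in liver and 0.25 in eWAT. The lowest p-values in liver belonged to Slc30a10, a manganese exporter (log2 difference -0.77, edgeR adjusted p = 0.221), and Slc30a4, a zinc transporter (1.04, edgeR adjusted p = 0.251). In eWAT they belonged to Atp7a, a copper pump, at 14.7 and 38.3 CPM in Crtc1+/+ and 3.74 and 4.65 CPM in Crtc1-/- (-2.66, edgeR adjusted p = 0.0516, past the study's rule), and to Slc39a8, a zinc and manganese importer (-1.65, edgeR adjusted p = 0.0916). The list's median log2 difference in eWAT was 0.53, beside -0.05 for all genes.

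Hsd11b1 encodes the enzyme that regenerates active glucocorticoid from its inert form inside cells, and it lies on chromosome 1 (chr1:193221640-193264045). In liver, its level did not separate the genotypes. It was at 439 and 508 CPM in Crtc1+/+ and 388 and 522 CPM in Crtc1-/-, and the log2 difference was -0.06 (SE 0.27, edgeR adjusted p = 0.933). The sign of this small value turned in 5 of 13 alternatives.

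In eWAT, the 2 Crtc1-/- libraries were far apart for Hsd11b1. Its level was 20.6 and 11.2 CPM in Crtc1+/+, 79.5 CPM in Crtc1-/- replicate 1 and 390.04 CPM in Crtc1-/- replicate 2. Both knockouts lay above both controls, but replicate 2, the library with 9.97% of its counts in hepatocyte genes, lay far above replicate 1, with 0.107%. The log2 difference was 3.88 (SE 0.89, edgeR adjusted p = 0.0547) with both libraries. Without Crtc1-/- replicate 2 it was 2.31, and without Crtc1-/- replicate 1 it was 4.63. Without Crtc1+/+ replicate 1 or replicate 2 it was 4.47 and 3.53. Of 14 alternatives, 5 called it.

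The other genes of glucocorticoid supply and clearance numbered 7. In eWAT edgeR called 2 of them higher and 0 lower, beside 6.65% of all genes called higher. H6pd, whose product makes the NADPH that the Hsd11b1 enzyme uses in the endoplasmic reticulum, rose from 122 and 131 CPM in Crtc1+/+ to 710.4 and 616 CPM in Crtc1-/- (log2 change 2.39, SE 0.34, edgeR adjusted p = 0.0231). The 2 libraries of each group were close for H6pd, and the groups did not overlap. Abcb1b, which encodes a steroid efflux pump, rose by 2.45 on the log2 scale (edgeR adjusted p = 0.0458) from a low level of 1.73 and 3.01 CPM. Hsd11b2, the enzyme of the opposite direction, stayed at 1.39 to 2.91 CPM in eWAT and at or under 3 counts in each liver library. Serpina6, the plasma carrier of corticosterone made by hepatocytes, was at 187 CPM in eWAT Crtc1-/- replicate 2 and at 1.24 to 12.04 CPM in the other 3 eWAT libraries.

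In liver, 5 genes of this list were tested and edgeR called 0 of them, with 1 at an unadjusted p under 0.05 and 0 called by DESeq2. That gene was Serpina6, at 235 CPM in both Crtc1+/+ livers and 379 and 367 CPM in the Crtc1-/- livers (log2 difference 0.66, edgeR adjusted p = 0.230). Abcb1a, a further efflux pump, followed at 0.411 to 2.51 CPM (1.24, edgeR adjusted p = 0.316). H6pd in liver was at 416 and 315 CPM in Crtc1+/+ and 382 and 215 CPM in Crtc1-/-, with overlap. The change of H6pd in eWAT exceeded that in liver by 2.59 on the log2 scale (edgeR adjusted p = 0.0414).

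Fkbp5 encodes a co-chaperone of the glucocorticoid receptor that lowers its affinity for hormone, and its induction is a feedback on the receptor (chr17:28398753-28486149). It was the member that stood lower in Crtc1-/- eWAT. Its level there was 143 and 207 CPM in Crtc1+/+ and 77.6 and 75.7 CPM in Crtc1-/-, and the groups did not overlap. The log2 difference of -1.19 (SE 0.31) had an edgeR adjusted p of 0.0706, and DESeq2 called it (adjusted p = 0.00401). In liver, Fkbp5 was at 27.1 and 54.9 CPM in Crtc1+/+ and 19.4 and 30.2 CPM in Crtc1-/-. The higher knockout there exceeded the lower control, and the log2 difference was -0.73 (SE 0.37, edgeR adjusted p = 0.333). Both tissues thus had the same sign, and the difference between them was -0.54 (SE 0.57, edgeR adjusted p = 0.578).

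The receptor, its chaperones and its cofactors were compared next. Of 12 genes tested in each tissue, edgeR called 0, with 3 at an unadjusted p under 0.05 in liver and 2 in eWAT. DESeq2 called 0 in liver and 1 in eWAT, beside 4620 of all 15391 genes in eWAT. The receptor gene Nr3c1 was at 9.50 and 11.9 CPM in Crtc1+/+ liver and 17.1 and 20.3 CPM in Crtc1-/- liver (log2 difference 0.81, edgeR adjusted p = 0.212), and at 18.9 and 29.2 against 36.8 and 52.1 CPM in eWAT (0.89, edgeR adjusted p = 0.178). Both knockout libraries lay above both controls in each tissue without passing the test. The mineralocorticoid receptor gene Nr3c2 had log2 differences of -1.01 in liver and -1.82 in eWAT (edgeR adjusted p = 0.182 in eWAT). In eWAT the lowest p-values were those of Ncoa2, a coactivator of the receptor (-1.94, edgeR adjusted p = 0.0815), and Fkbp4, the co-chaperone that competes with Fkbp5 (-1.06, edgeR adjusted p = 0.144). In liver they were those of Hsp90aa1, the stress-inducible HSP90 (1.08, edgeR adjusted p = 0.204), and the corepressor Ncor1 (0.97, edgeR adjusted p = 0.205).

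Tsc22d3 encodes GILZ, a leucine zipper protein that carries part of the anti-inflammatory action of glucocorticoids (chrX:140539528-140600522). Its genotype difference had opposite signs in the 2 tissues, and it was called in eWAT. In eWAT it was at 68.3 and 78.8 CPM in Crtc1+/+ and 350.1 and 289 CPM in Crtc1-/-, with tight pairs and no overlap. It rose there by 2.12 on the log2 scale (SE 0.31, edgeR adjusted p = 0.0245), and by 2.22 without the library rich in hepatocyte genes (edgeR adjusted p = 0.0142). The call was lost without Crtc1+/+ replicate 1 or replicate 2 (edgeR adjusted p = 0.163 and 0.263), where no gene of the table was called. In liver, Tsc22d3 was at 120.9 and 195 CPM in Crtc1+/+ and 64.0 and 85.1 CPM in Crtc1-/-. The knockouts there lay below both controls by a log2 difference of -1.08 (SE 0.31, edgeR adjusted p = 0.166), and DESeq2 called it (adjusted p = 0.0312).

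Sgk1 encodes a kinase that acts on ion channels and FOXO factors and is induced by glucocorticoids and mineralocorticoids. The gene spans chr10:21882184-21999903 and has 6 promoter windows in the RefSeq table. The window at chr10:21993640-21993889, on the plus strand, is shown because it held the full palindrome of the glucocorticoid response element, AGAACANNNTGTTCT, in capitals. Its other 5 windows held neither form of that element.
Sgk1: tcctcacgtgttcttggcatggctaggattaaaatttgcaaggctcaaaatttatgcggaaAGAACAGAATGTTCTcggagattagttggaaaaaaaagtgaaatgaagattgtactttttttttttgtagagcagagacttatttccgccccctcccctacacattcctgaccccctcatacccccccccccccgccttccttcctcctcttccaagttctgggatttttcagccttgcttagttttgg
The palindrome lay 189 to 175 bases before the start and contains the relaxed form within it. Of the 32851 windows of all genes, 3 held the palindrome (0.00913%).

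Sgk1 was at 25.1 and 39.4 CPM in Crtc1+/+ eWAT and 195 and 141 CPM in Crtc1-/- eWAT. Both knockouts lay well above both controls. The rise of 2.38 on the log2 scale (SE 0.37, edgeR adjusted p = 0.0270) was 2.55 without the library rich in hepatocyte genes (edgeR adjusted p = 0.0196), and its call was lost without Crtc1+/+ replicate 1 or replicate 2 (edgeR adjusted p = 0.159 and 0.252). In liver, Sgk1 was at 14.1 and 16.2 CPM in Crtc1+/+ and 5.66 and 13.2 CPM in Crtc1-/-. The knockouts differed from each other by more than the gap to the controls, and the log2 difference of -0.69 (SE 0.38) had an edgeR adjusted p of 0.372. It was -1.43 without Crtc1-/- replicate 2 and -0.19 without replicate 1 (edgeR adjusted p = 0.0624 and 0.747).

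Among 7 relatives and substrates of SGK1 and GILZ, edgeR called 1 in eWAT, beside 12.2% of all genes, and 0 in liver. In liver, 2 had an unadjusted p under 0.05, and DESeq2 called 1, beside 311 of all 11707 genes. The gene called in eWAT was Ndrg1, whose product is a substrate of SGK1. It rose from 163 and 155 CPM in Crtc1+/+ to 566 and 531 CPM in Crtc1-/- (log2 change 1.79, edgeR adjusted p = 0.0332). Nedd4l, of the same list, stood lower in Crtc1-/- eWAT (-1.24, edgeR adjusted p = 0.0535, past the study's rule). In liver, Ndrg1 stayed between 8.40 and 15.8 CPM. The lowest p-values in liver were those of Sgk2, a related kinase, at 74.6 and 60.1 CPM in Crtc1+/+ and 35.5 and 23.8 CPM in Crtc1-/- (-1.18, edgeR adjusted p = 0.134), and Tsc22d1, a relative of Tsc22d3 (-0.91, edgeR adjusted p = 0.175). The list's median log2 difference in eWAT was -0.18.

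Zbtb16 encodes PLZF, a zinc finger repressor that is strongly induced by glucocorticoids in many cell types (chr9:48651797-48836225). It was the least abundant member per length, at 0.64 to 9.85 FPKM. Its level in eWAT was 7.42 and 17.2 CPM in Crtc1+/+ and 35.1 and 91.4 CPM in Crtc1-/-. The groups did not overlap, but each pair was spread by more than a doubling of the lower value, and the log2 difference of 2.36 (SE 0.67) had an edgeR adjusted p of 0.0821. Without the library rich in hepatocyte genes the difference was 1.46 (edgeR adjusted p = 0.206), and without Crtc1-/- replicate 1 it was 2.90 and called (edgeR adjusted p = 0.0198), as it was by DESeq2 with all libraries (adjusted p = 0.00473). In liver, Zbtb16 was at 4.88 and 9.29 CPM in Crtc1+/+ and 5.40 and 22.6 CPM in Crtc1-/-, and the log2 difference was 0.98 (SE 0.58, edgeR adjusted p = 0.399). A single library carried it. The difference was -0.40 without Crtc1-/- replicate 2 and 1.68 without replicate 1.

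Cdkn1a encodes p21, an inhibitor of cyclin-dependent kinases that p53 induces under DNA damage and glucocorticoids induce in several cell types (chr17:29090979-29100722). Of the 8 genes it had the lowest p-value in eWAT. It was at 43.0 and 43.3 CPM in Crtc1+/+ (43.1 ± 0.241, SD, n = 2) and 281 and 210.2 CPM in Crtc1-/- (246 ± 50.2, SD, n = 2). The controls were nearly equal and the knockouts lay far above them. Cdkn1a rose by 2.51 on the log2 scale (SE 0.31, edgeR adjusted p = 0.0194), and by 2.67 without the library rich in hepatocyte genes (edgeR adjusted p = 0.00851). The call was lost without Crtc1+/+ replicate 1 or replicate 2 (edgeR adjusted p = 0.151 and 0.254).

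In liver the order was turned round. Cdkn1a was at 29.4 and 35.5 CPM in Crtc1+/+ and 8.81 and 16.2 CPM in Crtc1-/-, without overlap. The log2 difference was -1.38 (SE 0.33, edgeR adjusted p = 0.134), and it passed the threshold in 4 of 13 alternatives, DESeq2 among them (adjusted p = 0.00995).

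Other p53 targets and inhibitors of cyclin-dependent kinases were compared with it. Of 19 tested in eWAT, edgeR called 3 higher and 0 lower, beside 6.65% of all genes called higher. The list median was 0.44, beside -0.05 for all genes. At an unadjusted p under 0.05 there were 7, a level that many eWAT genes reached, as the ranks given with the zinc and copper list show. Cdkn1c, the imprinted inhibitor p57 that glucocorticoids also induce, rose from 20.7 and 17.5 CPM in Crtc1+/+ to 122 and 113 CPM in Crtc1-/- (log2 change 2.62, edgeR adjusted p = 0.0170). Phlda3, a p53 target that restrains AKT, rose by 2.57 (edgeR adjusted p = 0.0366), and Btg2, an antiproliferative p53 target, rose by 1.35 (edgeR adjusted p = 0.0491). In liver, edgeR called 0 of 18, with 2 at an unadjusted p under 0.05 and 0 called by DESeq2. The lowest p-values there were again those of Cdkn1c, at 3.29 and 3.20 CPM against 6.29 and 8.81 CPM (1.22, edgeR adjusted p = 0.162), and Phlda3 (1.09). Their sign in liver was opposite to that of Cdkn1a.

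**Figure D3:**
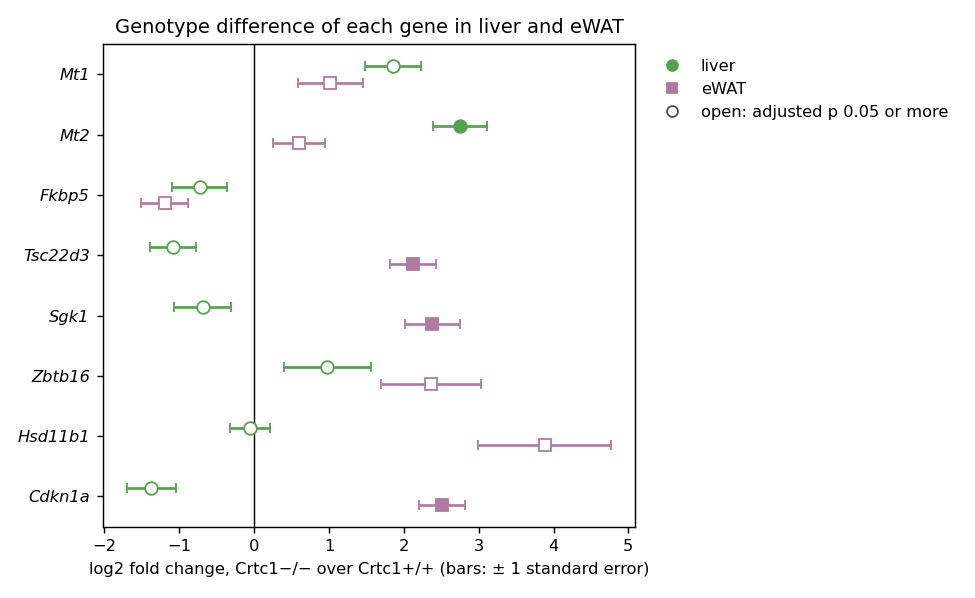
Log2 fold change of Crtc1-/- over Crtc1+/+ for each of the 8 genes in liver (circles) and eWAT (squares), with bars of ± 1 standard error and open symbols where the edgeR adjusted p was 0.05 or more. Only Mt2 is filled in liver and only Tsc22d3, Sgk1 and Cdkn1a in eWAT, and these 3 lie left of 0 in liver and right of 0 in eWAT.

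A fit of all 8 libraries, which treats liver and eWAT of a mouse as independent, tested whether the genotype difference itself differed between the tissues. It was called for 3 of the 8 members, all with the eWAT change above the liver change, beside 6.94% of 15587 genes (3.78% in that direction). The eWAT change exceeded the liver change by 3.12 on the log2 scale for Tsc22d3 (SE 0.48, edgeR adjusted p = 0.0163), by 2.99 for Sgk1 (SE 0.58, edgeR adjusted p = 0.0308) and by 3.80 for Cdkn1a (SE 0.46, edgeR adjusted p = 0.0104). Without eWAT Crtc1-/- replicate 2 these were 3.32, 3.27 and 4.06, all still called (edgeR adjusted p = 0.00918, 0.0180 and 0.00460). Without liver Crtc1+/+ replicate 1 none of the 3 was called (edgeR adjusted p = 0.0604, 0.101 and 0.0604). The same held without liver Crtc1+/+ replicate 2 (0.0662, 0.113 and 0.0545) and without eWAT Crtc1+/+ replicate 2 (0.0760, 0.0835 and 0.0565). Tsc22d3 and Sgk1 also lost the call without liver Crtc1-/- replicate 1 (edgeR adjusted p = 0.0657 and 0.0637) and without eWAT Crtc1+/+ replicate 1 (0.0627 and 0.0837), Tsc22d3 without liver Crtc1-/- replicate 2 (0.0585), and Sgk1 with library-size scaling (0.0604). A fit with the replicate as a block gave 3.09, 3.12 and 3.85 for Tsc22d3, Sgk1 and Cdkn1a. The edgeR adjusted p was 0.0390, 0.0533 and 0.0359, so Sgk1 was no longer called. The labels do not say whether equal numbers mark the same mouse. For Hsd11b1 the difference of 3.92 (SE 1.10) had an edgeR adjusted p of 0.0770. Leaving out 1 library gave 2.34 (without eWAT Crtc1-/- replicate 2) to 4.70 (without eWAT Crtc1-/- replicate 1). The latter fit leaves replicate 2, rich in hepatocyte genes, as the only Crtc1-/- eWAT library. For Mt1 and Zbtb16 the difference between the tissues was -0.90 and 1.36 (edgeR adjusted p = 0.476 and 0.468). The eWAT side of each of these contrasts rests on the same libraries that differed in epididymis genes.

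In eWAT, 26 other glucocorticoid-induced genes were compared with the 8. Beside 12.2% of all genes called (6.65% higher), edgeR called 10 of the 26 higher and 1 lower. The median log2 difference of the 26 was 1.63, beside -0.05 for all genes tested. The 5 with the lowest p-values were Dusp1, a phosphatase that switches off MAP kinases, Cebpd, a transcription factor of early adipogenesis, Angptl4, an inhibitor of lipoprotein lipase, Zfp36, an RNA-binding protein that shortens the life of cytokine messages, and Pck1, the gluconeogenic enzyme that also serves glycerol synthesis in fat. Dusp1 rose from 14.4 and 7.57 CPM to 168 and 205 CPM (log2 change 4.09, edgeR adjusted p = 0.0172). Cebpd rose by 2.28 on the log2 scale (edgeR adjusted p = 0.0194), and Zfp36 rose from 43.4 and 40.1 CPM to 146 and 188 CPM (edgeR adjusted p = 0.0243). Angptl4 rose by 4.89 (edgeR adjusted p = 0.0221) and Pck1 by 4.63 (edgeR adjusted p = 0.0260), and both are also strongly expressed by adipocytes, whose markers were higher in the same libraries. The part that cell makeup has in these values was not tested. The 1 that fell was Lcn2, a siderophore-binding lipocalin that epididymis also makes, at 5885 and 5251 CPM in Crtc1+/+ and 237 and 42.1 CPM in Crtc1-/- (log2 change -5.32, edgeR adjusted p = 0.0411). Without either one of the Crtc1+/+ libraries the calls among the 26 genes were lost, as were those of all genes in eWAT. Fits without a Crtc1-/- library leave 1 library in that group, and their counts are not compared here.

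In liver, 24 of these genes were tested and edgeR called 0. At an unadjusted p under 0.05 there were 6, a count without its share over all genes. DESeq2 called 1, beside 311 of all 11707 genes. The median log2 difference of the 24 genes was -0.10. The lowest p-values were those of Klf9, a Krüppel-like factor of the early hormone response, and Lcn2. Klf9 was at 11.6 and 23.8 CPM in Crtc1+/+ and 66.6 and 72.9 CPM in Crtc1-/- (1.98, edgeR adjusted p = 0.0738). Lcn2, also an acute-phase gene of liver, was at 36.0 and 21.6 CPM against 387 and 87.4 CPM (3.04, edgeR adjusted p = 0.113). Neither overlapped, and both stood higher in the knockouts, as Mt1 and Mt2 did and Tsc22d3, Sgk1 and Cdkn1a did not.

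**Figure D4:**
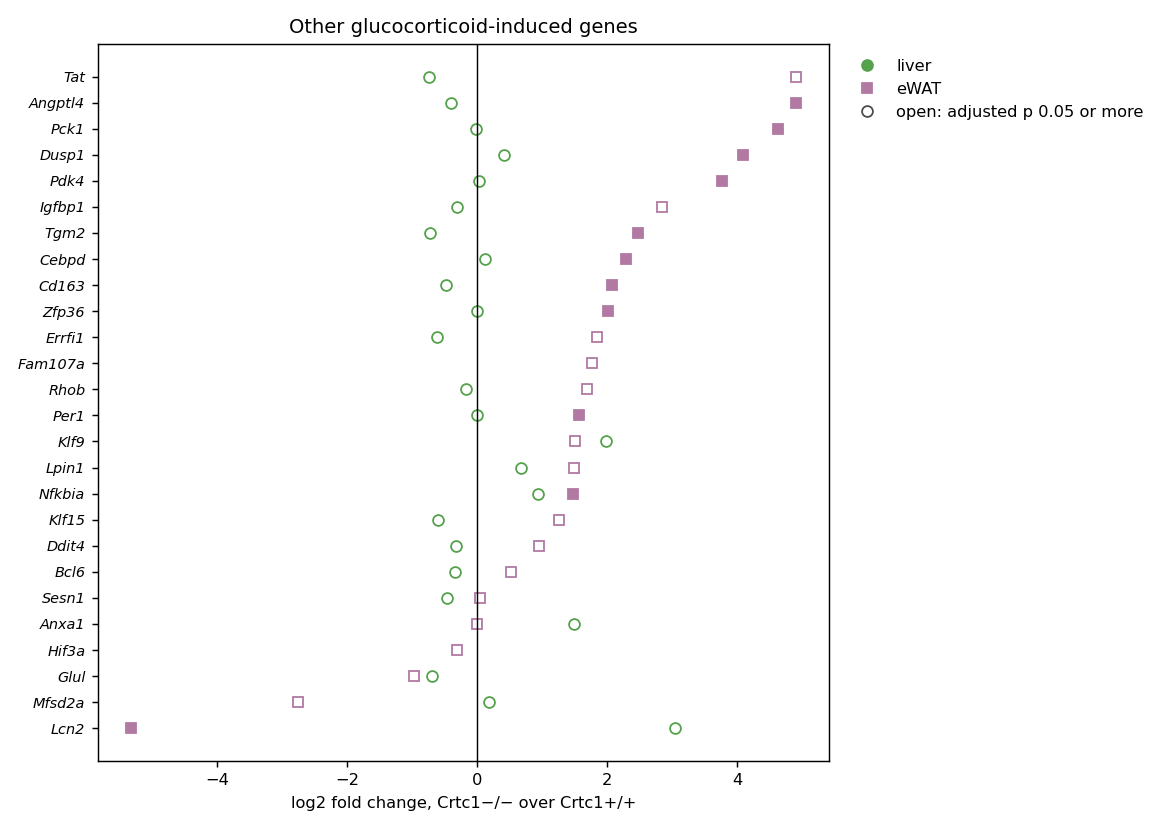
Log2 fold change of Crtc1-/- over Crtc1+/+ for 26 other glucocorticoid-induced genes, ordered by the eWAT value, with circles for liver (24 genes tested), squares for eWAT and open symbols where the edgeR adjusted p was 0.05 or more. In eWAT 10 filled squares lie right of 0 and 1, Lcn2, lies left of it, while every liver circle is open.

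Levels were also compared between the tissues within each genotype. Scaling bears on this comparison, since the median log2 difference of all genes, eWAT minus liver, was 0.61 in Crtc1+/+ and 0.20 in Crtc1-/- with TMM scaling and 2.003 and 1.33 with library-size scaling. In Crtc1+/+ mice, 2 members were called, both lower in eWAT, beside 54.9% of all genes (19.8% lower). These were Hsd11b1, with a log2 difference of -6.10 (SE 0.93, edgeR adjusted p = 0.00271), and Tsc22d3, with -2.32 (SE 0.35, edgeR adjusted p = 0.00258). Hsd11b1 was called in all 14 alternatives and Tsc22d3 in 13, the exception being library-size scaling. The Crtc1+/+ eWAT libraries held 8.66 to 10.1% of counts in epididymis genes and 0.256 to 0.394% in adipocyte genes. Crtc1-/- eWAT replicate 2 held 9.97% in hepatocyte genes. The part of cell makeup in the differences between tissues was not tested. In Crtc1-/- mice, Sgk1 (2.85, edgeR adjusted p = 0.00461) and Cdkn1a (2.99, edgeR adjusted p = 0.00151) were higher in eWAT, and Mt1 (-1.82, edgeR adjusted p = 0.0484) and Mt2 (-1.66, edgeR adjusted p = 0.0351) were lower, 4 members beside 27.8% of all genes (18.9% higher, 8.89% lower). Sgk1 and Cdkn1a were called in all 14 alternatives, Mt1 in 3 and Mt2 in 5, both being lost with library-size scaling.

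Scaled over all 8 libraries, the 4 groups stood in different orders, given here as a description. Mt2 went from Crtc1-/- liver through Crtc1-/- eWAT and Crtc1+/+ eWAT to Crtc1+/+ liver, with no overlap between neighbours. Mt1 had Crtc1-/- liver on top, then Crtc1-/- eWAT, and the remaining neighbours overlapped. Cdkn1a went from Crtc1-/- eWAT through Crtc1+/+ liver and Crtc1+/+ eWAT to Crtc1-/- liver without overlap. This order depends on TMM scaling, since with library-size scaling Cdkn1a in Crtc1+/+ was higher in eWAT than in liver (0.60). Sgk1 had Crtc1-/- eWAT on top with the other 3 overlapping their neighbours. For Tsc22d3, Crtc1+/+ liver and Crtc1-/- eWAT overlapped at the top, and Crtc1+/+ eWAT was lowest. Hsd11b1 was high in both liver groups, which overlapped, lower in Crtc1-/- eWAT and lowest in Crtc1+/+ eWAT. Fkbp5 was highest in Crtc1+/+ eWAT and the other 3 groups overlapped their neighbours, while for Zbtb16 all neighbours overlapped.

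The genes with the most similar profile over the 8 libraries were found by the root mean square (RMS) of the difference between centred log2 CPM values, over 11019 genes. The nearest neighbour of Sgk1 was Cdkn1a, and that of Cdkn1a was Sgk1 (RMS 0.32). Tsc22d3 lay nearest to Ces1d, a carboxylesterase of liver and fat (RMS 0.18), and then to Mpp1 (0.29). Fkbp5 lay nearest to Extl2 (0.17) and Exoc4 (0.19), and Hsd11b1 to the complement gene Cfb (0.22) and the transaminase gene Gpt (0.25). Mt1 lay nearest to Dbp, a clock-controlled transcription factor (0.33), and Lyve1 (0.43), and not to Mt2, whose nearest were Fhit (0.45) and Nrep (0.47). For Zbtb16 these were Nrp1 (0.48) and Gadd45g (0.55). These distances pool tissue and genotype over 8 libraries and carry no test.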

How the data were processed

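RNA-seq was performed by the study on liver and eWAT of 12-week-old male mice, with 2 Crtc1-/- and 2 Crtc1+/+ libraries in each tissue, at 16560070 to 19721464 counts per library. The authors deposited estimated counts per gene, not normalised, and FPKM, scaled by the authors for transcript length and library total. Between 5.44 and 9.98% of the estimated counts of a library were not whole, and all were rounded. The submitters' processing notes name HISAT, Bowtie2 and GRCm38.p6. The counting tool and gene annotation are not given in the sources used here.

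Within each tissue, low genes were dropped with filterByExpr, libraries were scaled by TMM, and the quasi-likelihood test of edgeR 4.0.16 was run under R 4.3.3. For each fit p-values were adjusted by Benjamini-Hochberg over every gene in the fit, and a gene was called at an adjusted p under 0.05. The interaction and the comparisons between tissues came from 1 fit of the 8 libraries. SE was obtained from the log2 fold change and the square root of F. CPM were TMM-scaled within each tissue. Alternatives were DESeq2 1.42.0, limma 3.58.1 on quantile-normalised log2(FPKM + 1) and log2(FPKM + 0.1), upper-quartile and library-size scaling, no filter or a mean count of at least 50, removal of marker genes, 1 fit of all libraries, a replicate block, and leaving out each library. The fits were also run on simulated data with 200 changed genes at a log2 change of 3, and the outcome is not given here. Promoter windows of 250 bases and gene spans came from RefSeq (GRCm38.p6), which matched 8 members by symbol and held windows for 7, with none for Zbtb16.

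The members and all gene lists were chosen with earlier results of these data known. Genes named were the 8 members, Crtc1 and, per list and tissue, up to 5 called genes with the lowest p-values, or the 2 lowest where none was called, with Nr3c1, Nr3c2, H6pd, Hsd11b2, Serpina6, Mtf1 and Slc30a1, and the 2 nearest profiles of each member. Lcn2 and Nedd4l in eWAT and the values in the other tissue of named genes were added after their values were seen. With 2 libraries a group the spread between them, not counting error, limits every comparison.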

Additional observations from a re-analysis of the deposited data

Results flagged for a closer look

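The genotype difference of 3 genes was not the same in the 2 tissues by the interaction test in edgeR with all libraries. Of 14 alternatives, 8 called it for Tsc22d3, 7 for Sgk1 and 11 for Cdkn1a. For Tsc22d3 the eWAT change minus the liver change was 3.12 on the log2 scale, with the Crtc1-/- libraries above both controls in eWAT and below both in liver. For Sgk1 it was 2.99, with the same arrangement of the libraries. For Cdkn1a it was 3.80, again with the knockouts above in eWAT and below in liver. The eWAT libraries of the 2 genotypes also differed in epididymis genes (8.66 to 10.1% of counts against 0.00124 to 0.00238%) and in adipocyte genes (0.256 to 0.394% against 2.20 to 4.63%), and the part of these in the 3 results was not tested. No group had enough libraries for a check of single outlying values.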

How the results depend on the processing

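Calls depended on the fit more than directions did. In liver, where the main count was 10 genes and 1 member, DESeq2 called 311 and 4, no expression filter gave 301 and 3, limma at either pseudocount gave 0 and 0, all 8 libraries in 1 fit gave 0 and 0, and leaving out 1 library gave 1 to 1507 genes and 0 to 5 members. The study's threshold took 500 genes and 4 members there, against 158 genes for limma with a pseudocount of 1, 2 members for limma at either pseudocount, 245 and 2 for the 8-library fit, and 159 to 1306 genes and 2 to 5 members without 1 library. In eWAT, with 1875 genes and 3 members called, DESeq2 called 4620 and 6, the 8-library fit called 3861 genes, and leaving out 1 library gave 0 to 3073 genes and 0 to 5 members, with 0 called without Crtc1+/+ replicate 1 or replicate 2. The study's threshold took 2448 genes and 4 members in eWAT, 4039 genes in DESeq2, and 633 to 3132 genes and 1 to 5 members without 1 library. The interaction was called for 1081 genes and 3 members, against 2056 and 5 in DESeq2, 705 genes with library-size scaling, 2533 for limma with a pseudocount of 1, and 0 to 2261 genes and 0 to 4 members without 1 library. Between tissues, 8552 genes and 2 members were called in Crtc1+/+, where 4 members were called with library-size scaling (11826 of all 15587 genes called) and by limma (6751 called), and 4285 to 8872 genes and 2 to 3 members without 1 library. In Crtc1-/-, 4330 genes and 4 members were called, 7127 genes with library-size scaling, and 1511 to 5962 genes and 2 to 5 members without 1 library. The causes were not tested.

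With the replicate number as a block, 82 genes were called in liver and 0 genes and 0 members in eWAT, where the adjusted p (edgeR) was 0.0587 for Tsc22d3, 0.0638 for Sgk1 and 0.0543 for Cdkn1a, and the interaction of Sgk1 was at 0.0533. Mt2 in liver stayed called (edgeR adjusted p = 0.0181). The labels do not say what a shared number means. Deviations of same-numbered libraries correlated across genes at 0.0712 in liver and -0.327 in eWAT. Between liver and eWAT they correlated at 0.270 in Crtc1+/+ and 0.0132 in Crtc1-/-.

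Signs turned only for differences that were not called in the main fits. Between tissues, for Sgk1 in Crtc1+/+ and for Crtc1 in Crtc1-/-, 1 alternative was called, and it had the opposite sign. Hsd11b1 in liver (-0.06) was 0.019 with a mean count of at least 50, 0.032 with upper-quartile scaling, 0.0029 with library-size scaling, and -0.30 to 0.15 without 1 library, above 0 without Crtc1+/+ replicate 2 or Crtc1-/- replicate 1. Zbtb16 in liver was -0.40 without Crtc1-/- replicate 2 and up to 1.68 without another library. Between tissues in Crtc1+/+, Sgk1 was 0.059 with upper-quartile and 1.27 with library-size scaling and -0.48 to 0.14 without 1 library. Mt1 was 0.49 with library-size scaling and 0.16 in limma, Zbtb16 0.98 with library-size scaling and -1.14 to 0.11 without 1 library, Cdkn1a 0.60 with library-size scaling, and Crtc1 -0.19 in limma. In Crtc1-/-, Crtc1 was 1.06 with library-size scaling and -0.44 to 0.13 without 1 library, and Zbtb16 -0.083 to 2.29. In eWAT the share of higher genes at the study's threshold was 52.6% with TMM, 41.5% with upper-quartile and 35.1% with library-size scaling, and that of the interaction 52.5, 39.2 and 34.4%.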
